A study of Mus musculus with 16 samples.

Results

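The 10 genes described here encode the switch that admits pyruvate to the mitochondrial oxidation of carbohydrate: the pyruvate dehydrogenase kinases Pdk1, Pdk2, Pdk3 and Pdk4, the pyruvate dehydrogenase phosphatase catalytic subunits Pdp1 and Pdp2, the E1 subunits Pdha1 and Pdhb of the pyruvate dehydrogenase complex, and the mitochondrial pyruvate carrier subunits Mpc1 and Mpc2. They were chosen by symbol, through the gene identifiers of the count table, and all 10 were found among its 55385 genes, of which 37084 had at least 1 count. Short-read RNA-Seq was available from 16 libraries, and for each of 8 tissues (heart, muscle, brown and white adipose, liver, kidney, lung and spleen) there was 1 library per treatment. Male C57BL/6 mice, 12 weeks old when acquired, had free access to food (fed) or were fasted for 24 h (fasting). Tissue from the 3 mice of a group was pooled before extraction, so each level below is that of 1 pooled library, no level has a replicate error, and a comparison within a tissue is between a pair of libraries. The question asked of these genes was how their transcripts differed between fasting and fed animals in each tissue and over all tissues together. In GRCm38 coordinates the kinase genes lie at chr2:71873224-71903858 (Pdk1, plus strand), chr11:95026258-95041354 (Pdk2, minus), chrX:93764607-93832201 (Pdk3, minus) and chr6:5483351-5496309 (Pdk4, minus), the phosphatase genes at chr4:11958184-11966452 (Pdp1, minus) and chr8:104591451-104599026 (Pdp2, plus), the E1 genes at chrX:160122209-160138413 (Pdha1, minus) and chr14:8165996-8173025 (Pdhb, minus), and the carrier genes at chr17:8282904-8297661 (Mpc1, plus) and chr1:165460637-165481214 (Mpc2, plus).

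The pyruvate dehydrogenase complex converts pyruvate to acetyl-CoA inside the mitochondrion, a step that animals cannot reverse, so carbon that passes it can no longer be turned into glucose. The kinases phosphorylate serines of the E1 alpha subunit and shut the complex off, the phosphatases remove the phosphate and turn it on again, and the carrier, a pair of small membrane proteins, brings pyruvate across the inner mitochondrial membrane. Pdk4 and Pdk2 are the kinase isoforms best known for their response to starvation in muscle, heart and liver, whereas Pdk1 and Pdk3 are better known as targets of hypoxia signalling.

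The coding sequence for the sites that the kinases phosphorylate is shown first, since the kinases and phosphatases act on the E1 alpha subunit. In the principal coding transcript of Pdha1, which encodes 390 residues, the stretch with the regulatory serines at residues 293 and 300 spans the junction of exons 9 and 10 on the minus strand of the X chromosome (GRCm38, chrX:160124618-160126234, ends of the stretch in the genome with the intron between them). It is printed from the GENCODE transcript, 5′ to 3′ and exonic throughout, with the codons of these serines in capitals. E1 alpha has a further regulatory serine outside this stretch.

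Pdha1 coding stretch: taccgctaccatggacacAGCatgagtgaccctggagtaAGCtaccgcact

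The upstream sequences of Pdk4 and Pdk2 are given next, since Pdk4 was called in every tissue and Pdk2 was the highest kinase per exon base in 5 of 8 fed tissues. RefSeq promoter windows (GRCm38.p6), from 250 bases before to 50 bases after a transcription start, were matched for 9 of the 10 genes (all but Pdp1). The part printed ends just before the first base of the gene in GENCODE, and so holds no base of the gene by that annotation. For Pdk2 it runs past the RefSeq start, so its last bases lie after that start. Pdk4 lies on the minus strand of chromosome 6 (chr6:5496310-5496528, 219 bases shown) and Pdk2 on the minus strand of chromosome 11 (chr11:95041355-95041621, 267 bases shown). Capitals mark matches, on either strand, to 8 short motifs that were searched. The motifs, with the share of all 32851 windows that hold each, were the TATA box TATAAA (13.6%), the forkhead core TGTTTA (13.4%), the glucocorticoid motif AGAACA (19%), the nuclear receptor motif AGGTCA (16.3%), its extended form AAGGTCA, which contains the former (4.72%), the E box CACGTG (7.15%), the GC box GGGCGG (35.7%) and the CCAAT box (37.4%).

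Pdk4 upstream: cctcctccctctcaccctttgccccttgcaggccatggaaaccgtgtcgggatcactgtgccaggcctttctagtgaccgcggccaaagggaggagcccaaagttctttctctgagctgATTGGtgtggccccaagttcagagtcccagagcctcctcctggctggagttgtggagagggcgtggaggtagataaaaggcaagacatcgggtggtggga

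Pdk2 upstream: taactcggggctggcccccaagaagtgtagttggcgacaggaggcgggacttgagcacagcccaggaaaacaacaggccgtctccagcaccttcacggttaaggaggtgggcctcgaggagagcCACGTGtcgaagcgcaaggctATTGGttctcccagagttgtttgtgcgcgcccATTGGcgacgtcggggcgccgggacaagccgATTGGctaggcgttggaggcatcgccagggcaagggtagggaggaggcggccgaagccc

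The Pdk4 window held a single match, a CCAAT box on the strand opposite to the gene (printed as ATTGG) that began 131 bases before the RefSeq start. The Pdk2 window, 1 of the 2 that RefSeq gives for this gene, held 3 CCAAT boxes, all on the strand opposite to the gene, and 1 CACGTG, which reads the same on both strands. The letters of the other 6 motifs lay in neither window. These matches describe short stretches of sequence and were not tested for binding.

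The library totals ran from 14245178 counts (fasting brown adipose) to 36069968 counts (fasting lung), so that 3 counts, the floor used here, stood for 0.0832 to 0.211 CPM. All levels are in CPM, the deposited counts of a gene relative to its library total, and the 10 genes were each covered by at least 11 counts in every library. The labelled tissues carried their own marker genes: summed skeletal muscle markers were at least 165090 CPM in muscle against at most 3093 elsewhere, hepatocyte markers at least 108852 in liver against at most 1673, cardiomyocyte markers at least 49867 in heart against at most 1200, and kidney tubule markers at least 35436 in kidney against at most 751. The adipocyte, brown adipocyte, B cell and lung epithelium lists were likewise highest in white adipose, brown adipose, spleen and lung. Within some tissues other lists moved with the treatment. The 10 skeletal muscle markers in brown adipose summed to 3093 CPM fed and 1380 CPM fasting, the 10 B cell markers in white adipose to 355 and 90.1, the 8 pancreatic acinar markers in spleen to 455 and 11.5, the 8 erythroid markers in spleen to 3867 and 9398, and the 7 cardiomyocyte markers in lung to 1200 and 636. In lung the B cell markers (535 and 274) and the 8 T cell markers (95.98 and 29.03) were also lower when fasting, and in heart the 10 hepatocyte markers were at 26.1 and 98.2. In white adipose the 8 kidney tubule markers summed to 69.9 CPM fed and 751 CPM fasting, of which Lrp2, an endocytic receptor, made up 709.6 CPM when fasting and Kap, the most abundant tubule gene in kidney, 18.2. Since the samples are whole tissues, fewer cells of a type and less RNA per cell cannot be told apart.

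Pdk4, the kinase that switches the complex off in starvation, was higher in fasting than in fed libraries in all 8 tissues, by 1.55-fold in liver and up to 18.9-fold in muscle. In fed tissues it stood at 11.3 CPM in spleen, 13.2 in lung, 14.7 in kidney, 16.1 in liver, 30.5 in white adipose, 162 in muscle, 216 in heart and 1915 in brown adipose. In fasting tissues it stood at 24.8 CPM in liver, 80.6 in spleen, 102 in lung, 270 in kidney, 339 in white adipose, 3069 in muscle, 3673 in heart and 4631 in brown adipose. Heart and muscle, already next to brown adipose in the order of fed tissues, came near its level when fasting, liver went from the fourth lowest tissue to the lowest, and brown adipose was the highest under both treatments. With TMM factors fasting muscle (5855 CPM) stood above fasting brown adipose (4459 CPM), and fed liver (24.1 CPM) just above fed white adipose (23.5 CPM). The fed and fasting ranges over tissues overlapped, but within each tissue the fasting library lay above the fed one.

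**Figure D1:**
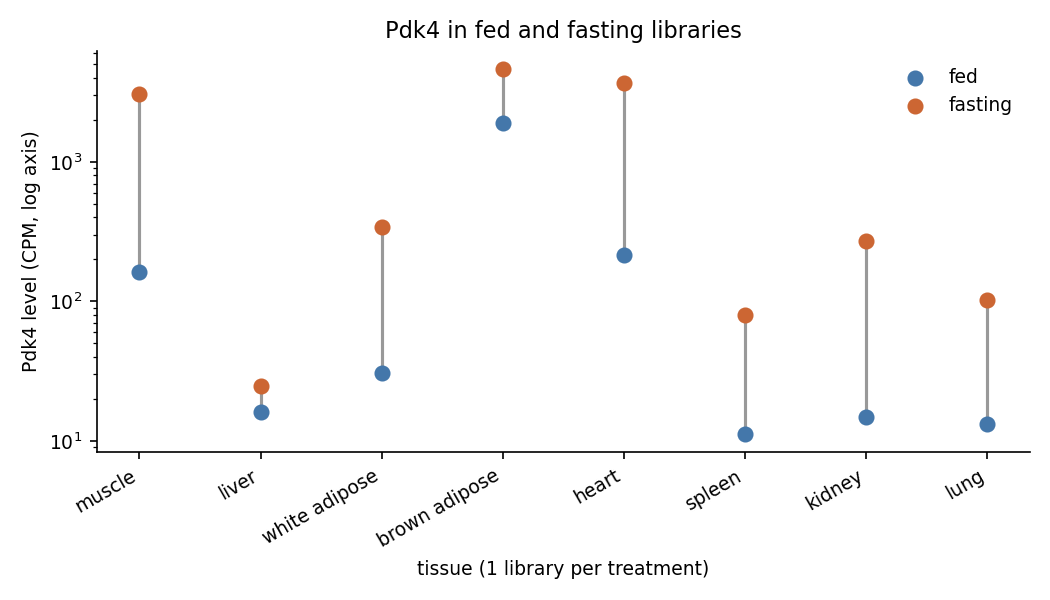
Pdk4 level in CPM (log axis) in the fed and the fasting library of each of the 8 tissues, each point 1 library and each line a tissue. The fasting point lies above the fed point in all 8 tissues, with the shortest line in liver (16.1 to 24.8 CPM) and the longest in muscle (162 to 3069 CPM).

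On the log2 scale the difference was 4.24 in muscle (95% counting interval 4.2 to 4.29), 4.19 in kidney (4.03 to 4.36), 4.09 in heart (4.04 to 4.14), 3.48 in white adipose (3.37 to 3.59), 2.96 in lung (2.81 to 3.11), 2.83 in spleen (2.65 to 3.02), 1.27 in brown adipose (1.25 to 1.29) and 0.63 in liver (0.44 to 0.82). These intervals are exact for independent counts and cover counting error only, without the variation between mice or pools. The kidney interval overlapped those of muscle and heart, which lay apart from each other, and the lung interval overlapped that of spleen, while white adipose, brown adipose and liver each lay apart from every other tissue. A gene was called in a tissue where its log2 fold change passed 0.5 in size and Fisher's exact test on the counts of the library pair gave p under 0.01, and by this rule Pdk4 was called up in 8 of 8 tissues. The same rule called up 7.8% of all genes at 1 CPM or more in muscle, 7.15% in liver, 18.9% in white adipose, 8.71% in brown adipose, 6.88% in heart, 3.53% in spleen, 4.35% in kidney and 4.17% in lung. When the fold changes of all such genes were ranked from the highest, Pdk4 was number 3 of 16924 in spleen, 5 of 13263 in muscle, 6 of 15621 in kidney, 7 of 14690 in heart and 9 of 17175 in lung. It was number 281 of 14853 in brown adipose, 576 of 16845 in white adipose and 865 of 13644 in liver. When pools were assumed to vary with a coefficient of variation of 0.4, in an exact test by edgeR, Pdk4 was called in 6 tissues and no longer in liver and brown adipose.

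The 10 adipocyte markers summed to more in the fasting library of several tissues, with 627 CPM fed and 1322 fasting in muscle, 978 and 2274 in heart, 191 and 334 in kidney, 278 and 490 in lung, and 114 and 370 in liver. In both muscle and heart 4 of the 10 (Plin4, Pnpla2, Fabp4 and Lipe) were higher when fasting and the other 6, among them the hormones Adipoq and Lep, were not. The 2 highest in fasting muscle were Plin4 (304 CPM fed, 870 fasting) and Pnpla2 (87.9 and 239), and in fasting heart Fabp4 (370.0 and 831) and Plin4 (359 and 728). Adipoq was at 16.1 and 6.79 CPM in muscle and 0.871 and 0.262 CPM in heart, and Lep was at 3.95 and 1.46 CPM in muscle and at 0 in both heart libraries. The part of this list, and of the moving lists named above in lung, spleen and both adipose tissues, in the Pdk4 values was not tested.

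The other kinases moved less. Pdk2 stood at 54.4 CPM in fed and 180 CPM in fasting white adipose, a log2 fold change of 1.72 (1.63 to 1.81), and was called up there only. The kidney tubule list (69.9 CPM fed, 751 fasting) and the B cell list (355 and 90.1) moved in the same library pair, and their part in this value was not tested. In the other tissues Pdk2 differed by -0.10 (muscle) to 0.46 (brown adipose), from 8.12 to 10.9 CPM in spleen, 29.5 to 32.6 in lung, 67.3 to 78.1 in liver, 147 to 185 in kidney, 247 to 341 in brown adipose, 304 to 346 in heart and 251 to 234 in muscle. It was thus higher in the fasting library of 7 tissues and slightly lower in muscle. Pdk1 was called up in kidney (57.1 to 91.6 CPM, log2 fold change 0.68) and white adipose (47.3 to 68.2 CPM, 0.53), the latter beside the same moving lists, whose part was not tested. In the kidney pair the adipocyte markers (191 to 334 CPM) and the pancreatic acinar markers (58.3 to 23.0 CPM) moved, and their part was not tested either. The heart value of Pdk1 lay just outside the threshold (285 to 400 CPM, 0.49), and Pdk1 was lower when fasting in muscle (81.4 to 59.1 CPM, -0.46) and liver (104 to 77.3 CPM, -0.42). In spleen (99 to 106 CPM), brown adipose (219 to 210 CPM) and lung (50.9 to 50.2 CPM) Pdk1 barely differed. With TMM or DESeq2 factors in place of library totals the heart value passed the threshold (0.54 with both) and the white adipose value fell below it (0.43 and 0.42).

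Pdk3, the isoform best known from testis, kidney and brain, was called in no tissue. It was present at 67.5 CPM in fed and 68.4 CPM in fasting kidney, 25.7 and 25.4 in lung, 20.6 and 22 in spleen, and 16.1 and 13.9 in white adipose. It stayed under 4 CPM in muscle, liver, brown adipose and heart, where it rested on 11 to 55 counts a library and its intervals reached from below 0 to above 0.

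To compare isoforms with each other, counts were divided by the summed exon length of each gene and given as shares of the 4 kinases. In fed tissues Pdk2 was the highest kinase per exon base in 5 tissues, with 58.1% in muscle, 55.1% in kidney, 54.0% in liver, 49.2% in heart and 45% in white adipose. Pdk1 led in fed spleen (47.9%), Pdk3 narrowly in fed lung (33.9%, against 31.4% for Pdk2), and Pdk4 in fed brown adipose (83.6%). In fasting tissues Pdk4 was the highest kinase in 7 of 8, with 91.4% in muscle, 90.7% in brown adipose, 86.6% in heart, 57.6% in white adipose, 52.2% in lung, 47.2% in spleen and 44.2% in kidney. Liver was the exception, where Pdk2 remained highest at 59.0% and Pdk4 went from 11.6% to 16.9%. The summed kinase level, in CPM per kilobase of exon, went from 136 to 956 in muscle, from 195 to 1208 in heart, from 652 to 1455 in brown adipose and from 38.3 to 168 in white adipose, but only from 39.4 to 41.9 in liver. In white adipose 68.0% of that difference was Pdk4 and the rest came mainly from Pdk2, whereas in heart, lung and brown adipose Pdk4 made up 96.5% to 97.2%. With the length of the principal coding transcript instead, a choice made after seeing the data, Pdk4 led in 6 fasting tissues, with kidney going to Pdk2 (39.2% against 36.9%), and Pdk2 led in 6 fed tissues. With no division by length Pdk4 led in 6 fasting tissues, with spleen going to Pdk1, and Pdk2 led in 4 fed tissues. The summed kinase level of liver was then slightly lower when fasting (187 to 181 CPM), so its direction depends on the length taken.

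**Figure D2:**
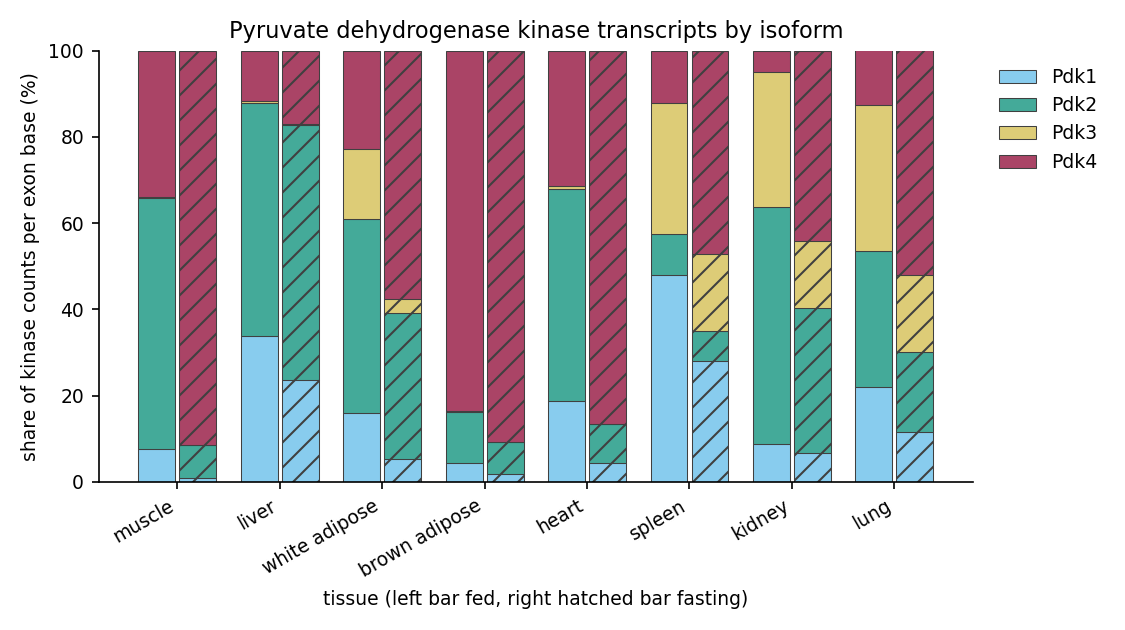
Share of each kinase in the summed counts per exon base of Pdk1 to Pdk4, in percent, for the fed (plain) and fasting (hatched) library of each tissue. Pdk4 takes 91.4% in fasting muscle and 86.6% in fasting heart, against 33.8% and 31.5% in the fed libraries, while liver stays mostly Pdk2 and Pdk1.

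Relative to Pdha1, their substrate, the kinases were higher in the fasting library of every tissue. The ratio of summed kinases to Pdha1, each per exon base, ran from 0.42 (white adipose) to 0.998 (brown adipose) in fed tissues and from 1.05 (kidney and liver) to 6.55 (muscle) in fasting tissues, so that fed and fasting ratios did not overlap over the 8 tissues. By principal transcript length they did overlap, with fed spleen at 0.999 and fasting kidney at 0.963. With no division by length the overlap was wider, with fed spleen at 1.37 and fed liver at 1.16 against fasting kidney at 0.99. Fasting over fed, the ratio was 7.92-fold higher in muscle, 6.04-fold in heart, 5.83-fold in white adipose, 2.32-fold in brown adipose and 1.15-fold in liver. Both quantities come from the same library, so this ratio does not depend on how libraries were scaled. Without Pdk4, the ratio was between 1.03-fold and 1.32-fold higher when fasting in 7 tissues and 3.19-fold higher in white adipose, although with no division by length it was lower in 2 tissues. Because mRNA was measured, nothing here gives the amount or the activity of kinase protein.

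**Figure D3:**
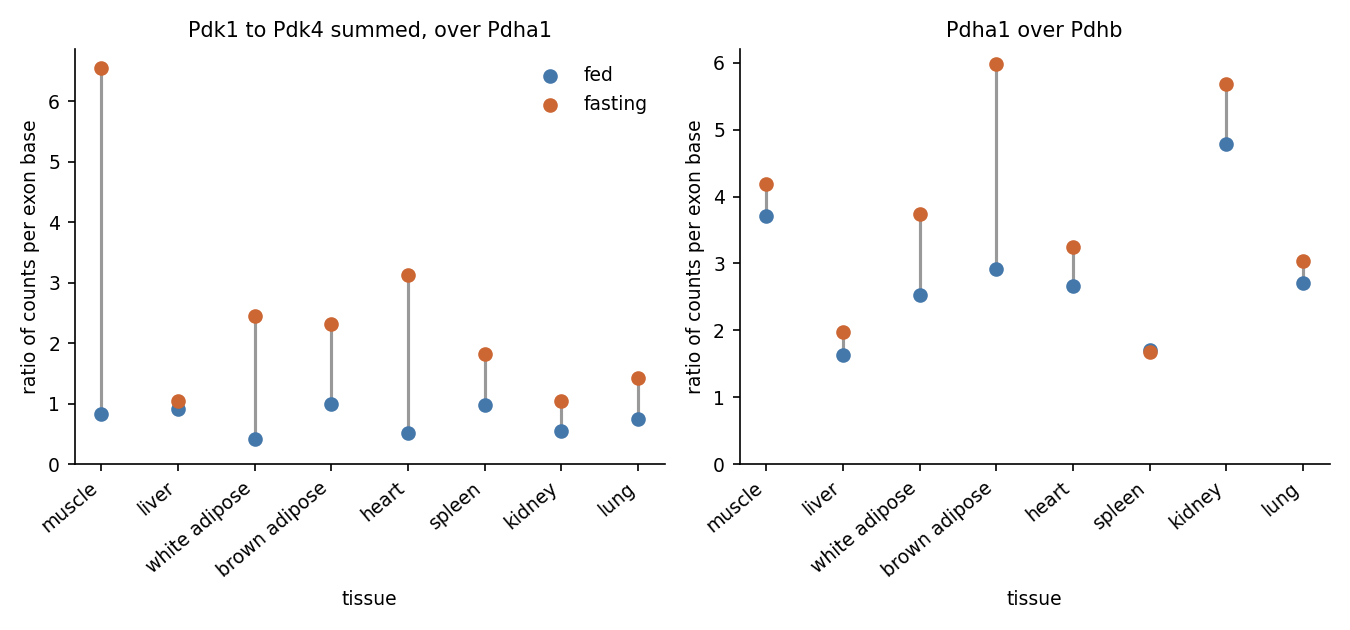
Left, counts per exon base of Pdk1 to Pdk4 summed over those of Pdha1. Right, Pdha1 over Pdhb. Each point is the fed or the fasting library of a tissue and both axes start at 0. The kinase ratio is highest in fasting muscle (6.55), and the E1 ratio differs most in brown adipose (2.92 fed, 5.98 fasting).

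Of the phosphatases, Pdp1 was called in muscle and Pdp2 in muscle and spleen. Pdp1, the calcium-sensitive isoform, stood at 117 CPM in fed and 50.04 CPM in fasting muscle, a log2 fold change of -1.23 (-1.32 to -1.14), and Pdp2, the insulin-sensitive isoform, at 7.39 and 12.6 CPM in the same libraries, 0.77 (0.51 to 1.03). Pdp1 was therefore called down and Pdp2 called up in muscle, where 16.2% of all genes were called down and 7.8% up. In the same pair the adipocyte list went from 627 to 1322 CPM and the 6 fibroblast markers from 1843 to 1318 CPM, and their part in these values was not tested. Per exon base the ratio of Pdp1 to Pdp2 in muscle went from 20.0 to 5.03, and both phosphatases together, were at 0.166 of Pdha1 fed and 0.0912 fasting. Together with the kinases this moved the ratio of summed kinases to summed phosphatases in muscle from 4.99 to 71.8, against 8.03 to 50.9 in heart and 3.34 to 3.96 in liver.

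Elsewhere Pdp1 was called in no tissue. It was at 69.7 and 69.3 CPM in fed and fasting heart, 32.0 and 32.4 in lung, 25.2 and 27.7 in white adipose, 18.7 and 13.5 in brown adipose, 18.5 and 16.7 in spleen, 13.2 and 14.0 in kidney, and 2.17 and 1.44 in liver. Pdp2 was called down in spleen, from 32.7 to 23.0 CPM with a log2 fold change of -0.51 (-0.66 to -0.35), in a tissue where 2.14% of all genes were called down. That value lay closest of all to the threshold and was lost with a pseudocount of 1 CPM (-0.49) and with TMM factors (-0.48). The erythroid and acinar lists in spleen moved as given above, and their part in this value was not tested. Just outside the threshold, Pdp2 went from 115 to 83.6 CPM in kidney (-0.46). In brown adipose (142 and 162 CPM), liver (64.3 and 58.4), heart (50.5 and 47.7), white adipose (31.0 and 27.0) and lung (22.9 and 17.7) it was not called. Pdp1 was highest in muscle (mean of both libraries 83.7 CPM) and lowest in liver (1.81), and Pdp2 was highest in brown adipose (152) and lowest in muscle (9.98). With TMM factors the lowest tissue for Pdp2 was lung.

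The catalytic E1 subunits form a tetramer of alpha and beta chains, and in adipose tissue Pdhb was called where Pdha1 was not. The Pdha1 log2 fold change ran from -0.41 in white adipose (341 to 256 CPM) to 0.12 in kidney (569 to 620 CPM), and with TMM factors the white adipose value (-0.51) passed the threshold. In brown adipose it was at 2441 CPM fed and 2343 CPM fasting, in heart at 1410 and 1443, in muscle at 617 and 545, in liver at 162 and 150, in lung at 147 and 147, and in spleen at 102 and 99.2. Pdhb, in contrast, stood at 864 CPM in fed and 405 CPM in fasting brown adipose, a log2 fold change of -1.09 (-1.14 to -1.05), and at 139 and 70.8 CPM in white adipose, -0.97 (-1.06 to -0.89). Pdhb was called down in both tissues, where 12.2% (brown) and 9.14% (white) of all genes were called down. It was lower when fasting in all 8 tissues, from 547 to 459 CPM in heart, 172 to 134 in muscle, 123 to 113 in kidney, 103 to 78.1 in liver, 61.9 to 61.1 in spleen and 56.1 to 49.96 in lung. With TMM factors the spleen value was 0.01, so the direction there depends on the scaling.

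The ratio of Pdha1 to Pdhb per exon base went from 2.92 to 5.98 in brown adipose and from 2.53 to 3.74 in white adipose, while it differed by no more than 1.22-fold in the other 6 tissues. In brown adipose the skeletal muscle markers (3093 to 1380 CPM) and the fibroblast markers (1275 to 797 CPM) were lower in the fasting library, and in white adipose the kidney tubule list was at 69.9 CPM fed and 751 fasting and Ighm, the heavy chain of IgM, at 338 and 76.3. Their part in the Pdhb values was not tested. The ratio itself moves with the length taken: by principal transcript its median over the 16 libraries was 1.53, against 2.98 by exon length. Of the 100-base windows of the Pdhb transcript 10.5% also occur in the pseudogene Gm6123, which stayed under 0.4 CPM in every library, and 16.1% of the exon bases of Pdha1 overlap Map3k15 on the opposite strand, which reached 70.4 CPM in kidney and at most 7.59 CPM elsewhere.

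The pyruvate carrier works only as a heterodimer of Mpc1 and Mpc2. Mpc1 was called down in white adipose (82.0 to 54.0 CPM, log2 fold change -0.60, -0.70 to -0.50), beside the kidney tubule and B cell lists that moved there, whose part was not tested, and Mpc2 was called in no tissue. In liver both were higher when fasting, Mpc1 from 67.7 to 92.5 CPM (0.45, 0.36 to 0.54) and Mpc2 from 115 to 146 CPM (0.35, 0.28 to 0.42). These liver values lay below the threshold, but the median gene of liver was itself at -0.13, and with TMM factors Mpc1 stood at 0.57 and was called while Mpc2 stood at 0.48. In the other tissues Mpc1 ran from 20.7 CPM (fasting spleen) to 362 CPM (fed brown adipose) with log2 fold changes of -0.24 (spleen) to 0.12 (heart), and Mpc2 from 27.9 CPM (spleen, the same in both libraries to this precision) to 332 CPM (fed brown adipose). The lowest log2 fold change of Mpc2 was in muscle, -0.44 (147 to 108 CPM). Which carrier subunit was higher per base cannot be read from these counts, because the median ratio of Mpc1 to Mpc2 was 2.68 by exon length and 0.81 by principal transcript length. In addition, 29.3% of the 100-base windows of Mpc1 occur in another gene, mostly in Mpc1-ps, which was counted at 3.88 to 105 CPM, so that the split of reads between the gene and its copy is uncertain.

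**Figure D4:**
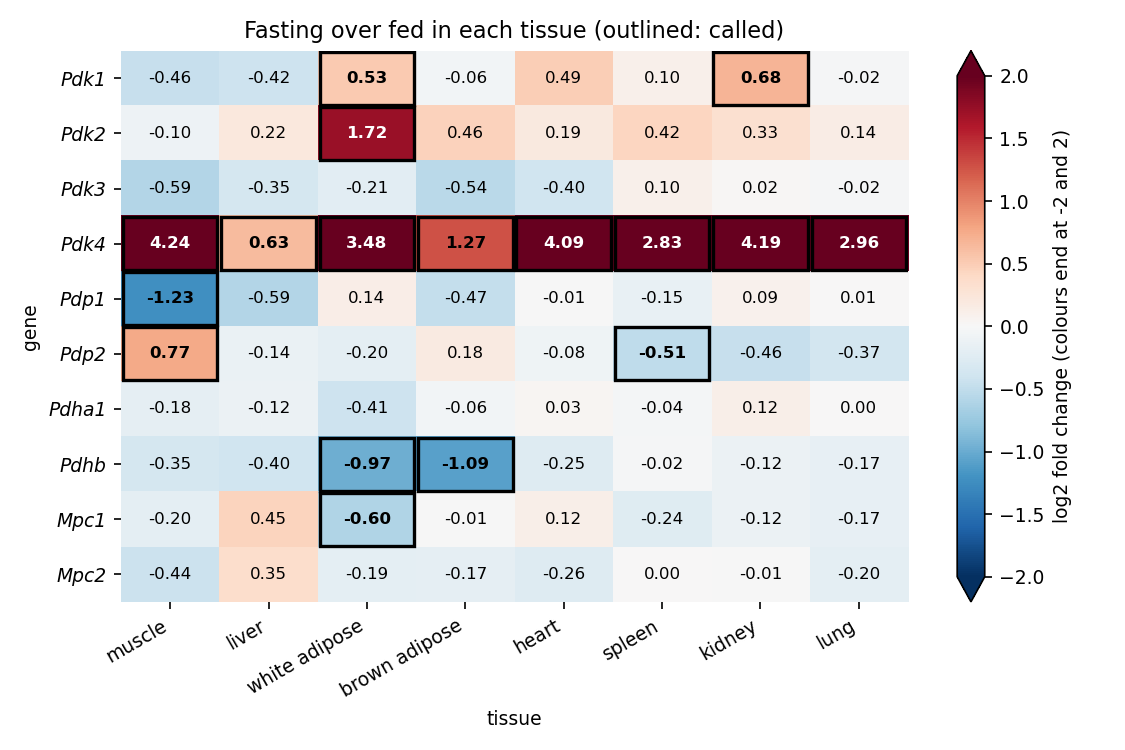
Log2 fold change of fasting over fed for the 10 genes (rows) in the 8 tissues (columns), printed in each cell and coloured from -2 to 2. Outlined cells passed the call rule: Pdk4 in all 8 tissues, 4 other pairs up and 5 down.

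Over all 80 pairs of gene and tissue, 12 were called up, 8 of them Pdk4, and 5 were called down. White adipose held the most calls, 3 up and 2 down, in the tissue with the most genes called up overall (18.9%). Leaving that tissue out, 9 pairs were called up and 3 down. No gene other than Pdk4 was called up in heart, spleen, lung, liver or brown adipose, and none of the 10 was called down in liver (15.8% of all genes called down), heart (9.65%), kidney (6.1%) or lung (9.82%). Of the other 9 genes, 4 of 72 pairs were called up and 5 of 72 down, shares within the range of the backgrounds of the 8 tissues. With the coefficient of variation of 0.4 assumed above, 6 pairs were called, all of them Pdk4.

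The E1 subunits and the carriers had the same tissues at the top of their order of levels. Averaged over fed and fasting libraries, Pdha1, Pdhb, Mpc1 and Mpc2 were each highest in brown adipose (2392, 634, 361 and 313 CPM) and next in heart (1427, 503, 211 and 257 CPM). They were lowest in spleen (Pdha1 101 CPM, Mpc1 22.6, Mpc2 27.9) or, for Pdhb, in lung (53.0). The neighbouring ranges of fed and fasting libraries were apart for most steps of these orders, but kidney and muscle overlapped for Pdha1, brown adipose and heart, and kidney, white adipose and liver, for Pdhb, liver and white adipose for Mpc1, and liver and muscle for Mpc2. Pdk1 and Pdk2 were both highest in heart (343 and 325 CPM), with brown adipose next (214 and 294 CPM), and for Pdk2 heart, brown adipose and muscle formed a chain of overlapping ranges. With TMM factors Pdk2 was highest in muscle (448 CPM). Pdk3 stood apart from every other gene of the group, with kidney first (68.0 CPM) and liver last (0.50 CPM). For Pdk4 each tissue overlapped its neighbour in the order, which ran from brown adipose (3273 CPM) to liver (20.4 CPM), or to spleen with TMM factors.

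Across the tissues, the quasi-likelihood test of edgeR was run on the 16 libraries, blocked by tissue, which left 7 residual degrees of freedom. Only 2 pools of mice gave all the tissues, so its p-values measure the spread between tissues of the same pools and not between animals. In this fit Pdk4 rose by 3.05 on the log2 scale (SE 0.44) with a Benjamini-Hochberg adjusted p of 0.00943, higher in 8 of 8 tissues. Each SE given for this fit was computed from the fold change and the unadjusted p of the test, so it is no separate measure of precision. The other 9 genes did not pass. Of them 2 had an unadjusted p under 0.05, as did 23.8% of all genes tested, and edgeR called up 2.31% and called down 2.08% of the 17296 genes tested. Pdk2 was at 0.46 (SE 0.15, adjusted p = 0.109 by edgeR), higher in 7 of 8 tissues, and at 0.29 without white adipose. Pdhb was at -0.38 (SE 0.14, adjusted p = 0.132 by edgeR), lower in 8 of 8 tissues by library totals and in 7 of 8 with the TMM factors of this fit, and at -0.15 without both adipose tissues. The other 7 lay between -0.22 (Pdp1) and 0.15 (Pdk1), with adjusted p of 0.360 or more in edgeR. The Pdk4 call held when any single tissue was left out (log2 fold change 2.84 to 3.35, adjusted p 0.00663 to 0.0312) and was lost without the tissue block (2.64, adjusted p = 1).

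**Figure D5:**
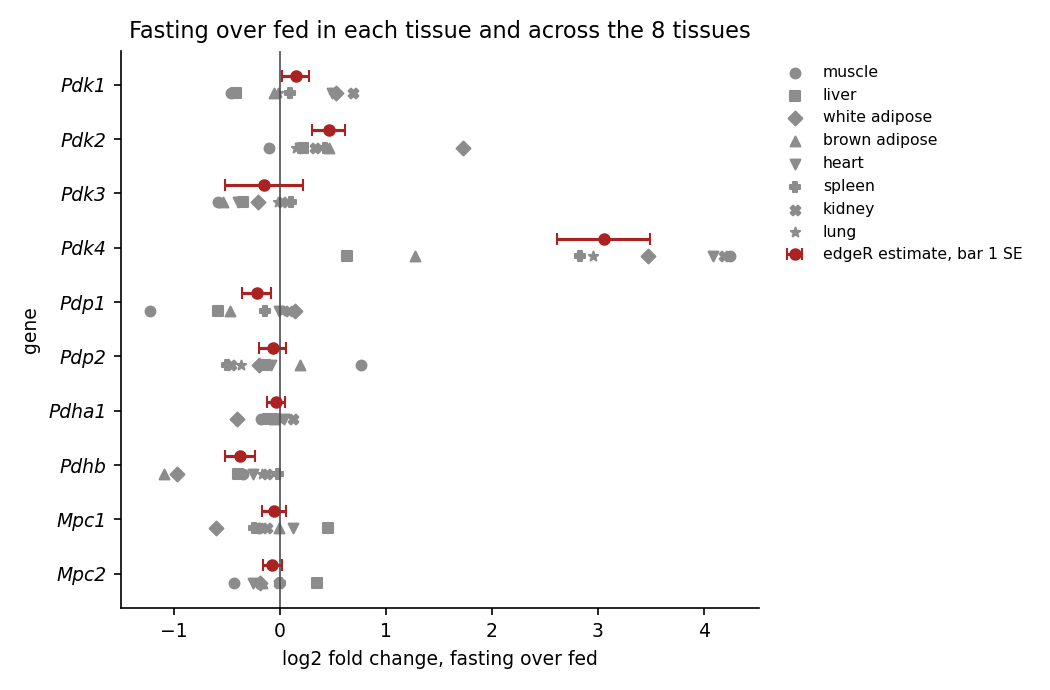
Log2 fold change of fasting over fed for each gene in each tissue (grey symbols) and the edgeR estimate over the 8 tissues (red point, bar 1 SE as implied by the p of the test). Pdk4 lies at 3.05, with liver (0.63) and brown adipose (1.27) to its left, and the estimates of the other 9 genes lie between -0.38 and 0.46.

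The remaining genes of the complex and of the routes around it were taken as 5 lists of 48 genes, all of which could be tested. Across the tissues edgeR called 2 up and 0 down, while 13 of the 48 had an unadjusted p under 0.05, 5 of them higher and 8 lower when fasting, beside 4110 of the 17296 genes tested (23.8%). They were Pck1, the cytosolic enzyme that commits oxaloacetate to glucose synthesis (log2 fold change 1.14, SE 0.26, adjusted p = 0.0387), and Foxo3, a transcription factor held out of the nucleus by insulin signalling and known to act on Pdk4 (0.88, SE 0.16, adjusted p = 0.0192). The median of the 48 genes was 0.01, against -0.01 over all genes tested.

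Of the 7 other genes of the complex none was called across tissues. The E2 core Dlat was called down in liver (64.4 to 43.5 CPM) and brown adipose (809 to 550 CPM), and the E3 enzyme Dld (134 to 80.4 CPM) and the binding protein Pdhx (50.5 to 28.3 CPM) in white adipose, beside the lower Pdhb there and the kidney tubule and B cell lists that moved in that pair, whose part was not tested. In brown adipose the skeletal muscle markers (3093 to 1380 CPM) and the fibroblast markers (1275 to 797 CPM) moved. Their part in Dlat and in the brown adipose values given below was not tested. Together the 7 genes were called up in 0 and down in 4 of 56 pairs of gene and tissue, beside the same backgrounds of 3.53% to 18.9% up and 2.14% to 16.2% down. The regulatory phosphatase subunit Pdpr and the lipoylation genes Lipt1, Lipt2 and Lias were called in no tissue.

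Foxo3 was called up in 6 tissues, with 37.8 to 113 CPM in muscle, 39.0 to 110 in brown adipose, 90.4 to 155 in white adipose, 117 to 206 in kidney, 143 to 251 in heart and 169 to 314 in lung. It was not called in liver (79.8 to 83.7 CPM), where Pdk4 also differed least, or in spleen (126 to 158 CPM), where Pdk4 went up 7.12-fold. Foxo1, its relative, was called up in muscle (17.1 to 61.1 CPM) and brown adipose. The 12 factors together were called up in 16 and down in 14 of 96 pairs of gene and tissue, shares within the range of the backgrounds of the 8 tissues (3.53% to 18.9% up and 2.14% to 16.2% down). The upper end of the range up is white adipose, which held 3 of the 16 calls up. In every other tissue the background was at most 8.71% up, below the share of the factors. Ppara, a fatty acid receptor, was called up in liver (145 to 275 CPM), kidney (86.9 to 131 CPM) and white adipose (10.2 to 15.3 CPM) and down in muscle (12.1 to 6.17 CPM) and heart (57.8 to 40.8 CPM). In brown adipose, where its level was above that of liver, Ppara was not called (363 to 301 CPM). The coactivator Ppargc1a was called up in liver (14.8 to 34.2 CPM) and white adipose (13.1 to 22.1 CPM) and down in muscle (47.6 to 24.1 CPM). Among the other factors, Ppargc1b, a coactivator of oxidative genes, was called down in muscle (18.1 to 3.13 CPM) and heart (42.2 to 18.4 CPM), Pparg was called up in heart (11.2 to 25.9 CPM) and down in liver (13.2 to 8.21 CPM), and Ppard was called down in kidney (34.3 to 9.08 CPM). Nr3c1 was called down in liver, white adipose and heart, and Foxo4 in liver. Esrra was called up in liver and down in muscle and brown adipose, and Rxra up in brown and down in white adipose.

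Around pyruvate itself, the 13 supply genes were called up in 13 and down in 18 of 104 pairs of gene and tissue, and the 7 carboxylation and citrate genes up in 11 and down in 11 of 56, in tissues where the shares of all genes called ran from 3.53% to 18.9% up and from 2.14% to 16.2% down. The 9 genes of the sister dehydrogenase complexes, Ogdhl and Bckdhb among them, were called up in 7 and down in 2 of 72, beside the same backgrounds. The genes given here were picked from the called genes of all 5 lists at 5 CPM or more. Each was among the 2 largest differences each way in at least 1 tissue, and is given wherever it was called. Other called genes are not given, so a tissue can hold larger differences than some of those printed. An example is Ldha, called up in liver (447.2 to 913.5 CPM). Pck1 went from 1066 to 4768 CPM in liver, 1638 to 6942 in kidney, 1659 to 4019 in white adipose, 4050 to 8243 in brown adipose, 19.9 to 46.2 in lung and 8.30 to 15.7 in spleen. Acly, which turns exported citrate into acetyl-CoA for fat synthesis, was called down in liver (448 to 108 CPM), white adipose (604 to 205 CPM), brown adipose (4331 to 381 CPM) and muscle (31.6 to 20.2 CPM). Me1, which makes NADPH from malate, was called down in brown adipose (536 to 175 CPM), white adipose (311 to 116 CPM) and liver (214 to 92.0 CPM). The citrate carrier Slc25a1 was called down in the same 3 tissues (503 to 251, 224 to 84.3 and 161 to 103 CPM) and in muscle (5.07 to 2.13 CPM). The liver and red cell pyruvate kinase Pklr was called down in liver (202 to 41.0 CPM) and up in white adipose (0.34 to 21.5 CPM) and kidney (25.3 to 41.5 CPM). Ogdhl, a relative of the oxoglutarate dehydrogenase E1, was called up in white adipose (1.20 to 23.8 CPM) and heart (187 to 285 CPM). The part of the kidney tubule list, which moved in white adipose as given above, in these white adipose values was not tested. The alanine aminotransferases, which exchange pyruvate for alanine, were both called up in liver (Gpt2 from 385 to 1143 CPM, Gpt from 225 to 332 CPM). Gpt2 was also called up in muscle (319 to 501 CPM) and spleen (3.84 to 6.04 CPM), and Gpt was called down in white adipose (165 to 19.1 CPM), brown adipose (94.0 to 41.8 CPM) and heart (39.9 to 25.8 CPM). Pck2 was called up in brown adipose (24.9 to 73.5 CPM) and white adipose (43.9 to 68.8 CPM). Slc16a7, a monocarboxylate transporter, was called down in kidney (312 to 204 CPM), brown adipose (76.2 to 29.3), white adipose (86.5 to 38.7) and muscle (2.70 to 1.55) and up in liver (68.2 to 107), and Bckdhb, the E1 beta chain of the branched-chain complex, was called down in spleen (14.2 to 10.02 CPM).

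Likeness of pattern was measured as the Pearson correlation of log2(CPM + 1) over the 16 libraries with each of 13223 genes averaging 5 CPM or more. These values describe the libraries, 8 pairs of which share a tissue, and carry no test. Pdha1 was most like Dlat (r = 0.993), and the complex I subunit Ndufb8 was also close (0.988). Pdhb was most like Pdhx (0.977), then Mrpl55 (0.972) and Coq5 (0.964). Each E1 subunit thus had another subunit of the same complex as its nearest gene, whereas Pdha1 and Pdhb reached 0.934 with each other. Mpc1 was most like Ndufb6 (0.991), Mpc1-ps (0.987) and Uqcr10 (0.986), and Mpc2 like Mcrip2 (0.987), Mpc1-ps (0.982) and Chchd2 (0.982), with 0.972 between the carrier subunits.

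Among the regulators, Pdk4 was most like Ucp3, a mitochondrial carrier of muscle and brown fat (0.858), then Dusp28 (0.820) and Tmem11 (0.818). Pdk1 was most like Ptcd3 (0.940), Fam185a (0.898) and Osgepl1 (0.879), and Pdk2 like 2210408F21Rik (0.952), with Kcnn1 also close (0.934). Pdk3 was most like Kazn (0.983), Renbp (0.978) and Igfbp7 (0.975) and had a negative correlation with each of the other kinases (-0.44 to -0.42). Pdp1 was most like Lmcd1 (0.976), Oxsr1 (0.958) and Zfp651 (0.952), and Pdp2 like Acsf3 (0.945), Edf1 (0.939) and Aifm1 (0.932), while the 2 phosphatases correlated at -0.53. By fold change over the 8 tissues, with a pseudocount of 1 CPM, the genes most like Pdk4 were Gm37726 (0.963), Nek6 (0.952), Atf4 (0.946), Ap1g2 (0.938) and Rbm41 (0.936). In muscle their own differences were small (Atf4 from 140 to 191 CPM), far from the size of the Pdk4 difference there. In liver, brown adipose, spleen and lung each of them was lower when fasting, whereas Pdk4 was higher in all of these tissues (16.1 to 24.8 CPM in liver). Atf4 went from 106 to 58.8 CPM in liver and from 101 to 76.7 in brown adipose. In spleen it went from 134 to 115 CPM and in lung from 135.6 to 122.5.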

How the data were processed

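Strand-specific short-read RNA-Seq libraries were made from pooled tissue of the 3 mice of a group. The authors used fastp 0.23.2 and FastQC 0.11.8 for trimming and quality checks of paired-end 100-base reads, HISAT2 2.2.1.0 for alignment (GRCm38) and featureCounts of Subread 2.0 for counting on GENCODE mouse release 24. The deposited values are raw counts per gene and library, with the exon length of each gene as another value that the authors' counting program wrote. Neither the strand option nor the unit counted (reads or pairs) is given in the sources used here. Mitochondrial genes had 0 counts in all libraries, so levels are relative to totals without them. Symbols were matched by identifier without its version, for 55144 of 55385 genes, and coordinates are those of GRCm38.

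Counts were divided by library totals to give CPM. Within a tissue, the log2 fold change was taken with a pseudocount of 0.01 CPM and Fisher's exact test (two-sided) was run on each gene. A call needed a size above 0.5 and p under 0.01, and backgrounds were taken over genes averaging 1 CPM or more in the pair. Across tissues, edgeR 4.0.16 (R 4.3.3) was fitted with TMM factors, filterByExpr and tissue as a block, with calls at a Benjamini-Hochberg adjusted p under 0.05. Its common coefficient of variation was 0.196. Both steps were tested on simulated data. For the step within a tissue these data held counting variation only, so they cannot show how its rule behaves where pools vary. Intervals are exact at 95% for independent counts and cover counting error only. Reads without molecular identifiers are not independent molecules, so the intervals can be too narrow even for that error. Levels of different genes were compared per exon base. Python 3.11.15 was used otherwise, with scipy 1.17.1, numpy 2.4.6, pandas 2.3.3 and matplotlib 3.10.9.

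The 10 genes, the pathway and marker lists and the tests were chosen with earlier results of these data known. The genes named are the 10 members, pathway genes called across tissues, the 2 largest differences each way per tissue among called pathway genes at 5 CPM or more, the 3 genes most like each member (for Pdha1 and Pdk2, not all are reported here), the 5 most like Pdk4 by fold change, and the highest genes of a marker list quoted. Dlat, Dld, Pdhx, Foxo1 in brown adipose, Ppara, Ppargc1a, Nr3c1, Foxo4, Esrra, Rxra, Ldha, Adipoq, Lep, Lipe and the genes that share sequence with members were named after their values were seen. The alternatives were a pseudocount of 1 CPM, TMM factors, DESeq2 1.42.0 size factors, a total without the 10 highest genes, an adjusted p, a fold threshold of 1 and an exact test by edgeR in which pools vary with a coefficient of variation of 0.4. Across tissues, the Wald test of DESeq2, total counts, no filter, no block and tissues left out were tried. The principal transcript length and the counts without white adipose were added after seeing the data. No library was left out.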

Additional observations from a re-analysis of the deposited data

Results flagged for a closer look

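Pdp2 was called in opposite directions in 2 tissues, with a log2 fold change of 0.77 in muscle (7.39 CPM fed, 12.6 CPM fasting) and -0.51 in spleen (32.7 CPM fed, 23.0 CPM fasting). The spleen call was kept under 2 of the 7 alternatives and the muscle call under 5 of 7. The part of the marker lists that moved in muscle and spleen, as given above, was not tested. The difference between the tissues was not tested, since each tissue had 1 library per treatment. Among the pathway genes, Pklr was called down in liver with a log2 fold change of -2.30 (202 to 41.0 CPM) and up in white adipose with 5.93 (0.34 to 21.5 CPM), and this difference was not tested either. Pklr was also called up in kidney (25.3 to 41.5 CPM, 0.71), and in white adipose the kidney tubule list was at 69.9 CPM fed and 751 CPM fasting, whose part in the Pklr value was not tested.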

How the results depend on the processing

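Of the 17 calls within tissues, 6 (Pdk4 in muscle, white adipose, heart, spleen, kidney and lung) were kept under all 7 alternatives, and no called value changed sign. When a coefficient of variation of 0.4 was assumed, pairs called up went from 12 to 6, pairs called up without Pdk4 from 4 to 0, and pairs called down from 5 to 0. With a fold threshold of 1, pairs called down went to 2 and pairs up without Pdk4 to 1. Without white adipose these counts were 3 and 2. Scaling changed the sign of 7 uncalled pairs, all within 0.12 of 0, and moved the median gene of liver by 0.12 and of white adipose by -0.10 (TMM).

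The tissue block pairs the fed and fasting library of each tissue. Without it Pdk4 was at 2.64 and 0 members were called, whereas 12 other settings of that fit kept it. With TMM factors in place of totals, the highest over the lowest tissue was 10.8-fold for Pdk1 (6.78 by totals), 70.1-fold for Pdk2 (34.2), 81.7-fold for Pdk3 (135) and 101-fold for Pdk4 (160). By principal transcript length the median ratios were 1.04 for Pdp1 over Pdp2 (0.97 by exon length), 1.53 for Pdha1 over Pdhb (2.98), 0.81 for Mpc1 over Mpc2 (2.68, and 0.76 with no length) and 0.98 for summed kinases over Pdha1 (1.02). The order of Pdp1 and Pdp2 within a tissue was the same under the lengths tried in both libraries of every tissue except fed white adipose (1.03 by exon length, 0.81 with no length). For Mpc1 and Mpc2 it turned in most tissues. Pdk3 in muscle, liver, brown adipose and heart was limited by its depth of 11 to 55 counts.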
